A study of Mus musculus with 4 samples.

Results

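Goblet cells of the mouse small intestine were taken as the cells that carry the label Goblet in the deposited annotation, 1989 of 15053 cells in all. They came from 4 single-cell libraries of dissociated small intestine, prepared with the 10x 3' version 2 kit. Control diet libraries 1 and 2 gave 460 and 566 goblet cells, and ketogenic diet libraries 1 and 2 gave 476 and 487. The deposited cell table lists male mice for all 4 libraries and 1 donor name per library. Age, strain, the composition of the diets, the length of feeding and whether animals were pooled were not given in the sources used here. P-values therefore measure the spread between libraries, which may be partly technical. Unique molecular identifiers (UMIs, 1 per captured transcript) were summed over the goblet cells of each library, and levels are UMIs per 1000000 goblet cell UMIs of that library (CPM) unless another class is named.

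Goblet cells are the mucus-secreting lineage of the intestinal epithelium. They arise from crypt progenitors that switch on the transcription factor Atoh1, and they fill with granules of the gel-forming mucin Muc2 and its partner proteins. Muc2 is a very large protein that is disulfide-bonded and heavily glycosylated, so goblet cells carry an extensive endoplasmic reticulum (ER) and a large set of folding enzymes and glycosyltransferases. A ketogenic diet is high in fat and very low in carbohydrate. Fatty acids activate the nuclear receptors of the PPAR family, which raise genes of fatty acid uptake and mitochondrial oxidation.

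The goblet sums held 3815227 and 3909525 UMIs under the control diet (libraries 1 and 2) and 4258257 and 4330346 under the ketogenic diet (libraries 1 and 2). The median goblet cell had 6896 to 9268 UMIs, with control library 2 lowest, and a median mitochondrial share of 4.52% to 4.79%. Of the cell barcodes, 111 occurred in more than 1 library, summed over all library pairs, and 2 of these pairs joined goblet cells to goblet cells. The 16 immune markers reached at most 0.000315% of goblet UMIs and the 14 stroma and vessel markers at most 0.000164%. Control library 1 stood apart in MHC class II transcripts. Its goblet cells held 962 Cd74 UMIs, against 27, 45 and 48 in control library 2 and ketogenic libraries 1 and 2.

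The marker genes matched the label. Muc2 was at 2012, 1809, 2204 and 2030 CPM in control libraries 1 and 2 and ketogenic libraries 1 and 2. The Paneth class held more, at 2343, 3075, 2730 and 2149 CPM in the same order. No other class exceeded 41.2 CPM in any library. Tff3, the trefoil peptide packed with mucin, was the most abundant of the 7 goblet markers at a mean of 33148 CPM. Agr2, the disulfide isomerase needed for mucin assembly, followed at 15557 CPM, and Spink4, a secreted protease inhibitor, at 13193 CPM. The mucus-associated protein Fcgbp averaged 7443 CPM and the lectin Zg16 averaged 5858 CPM.

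**Figure D1:**
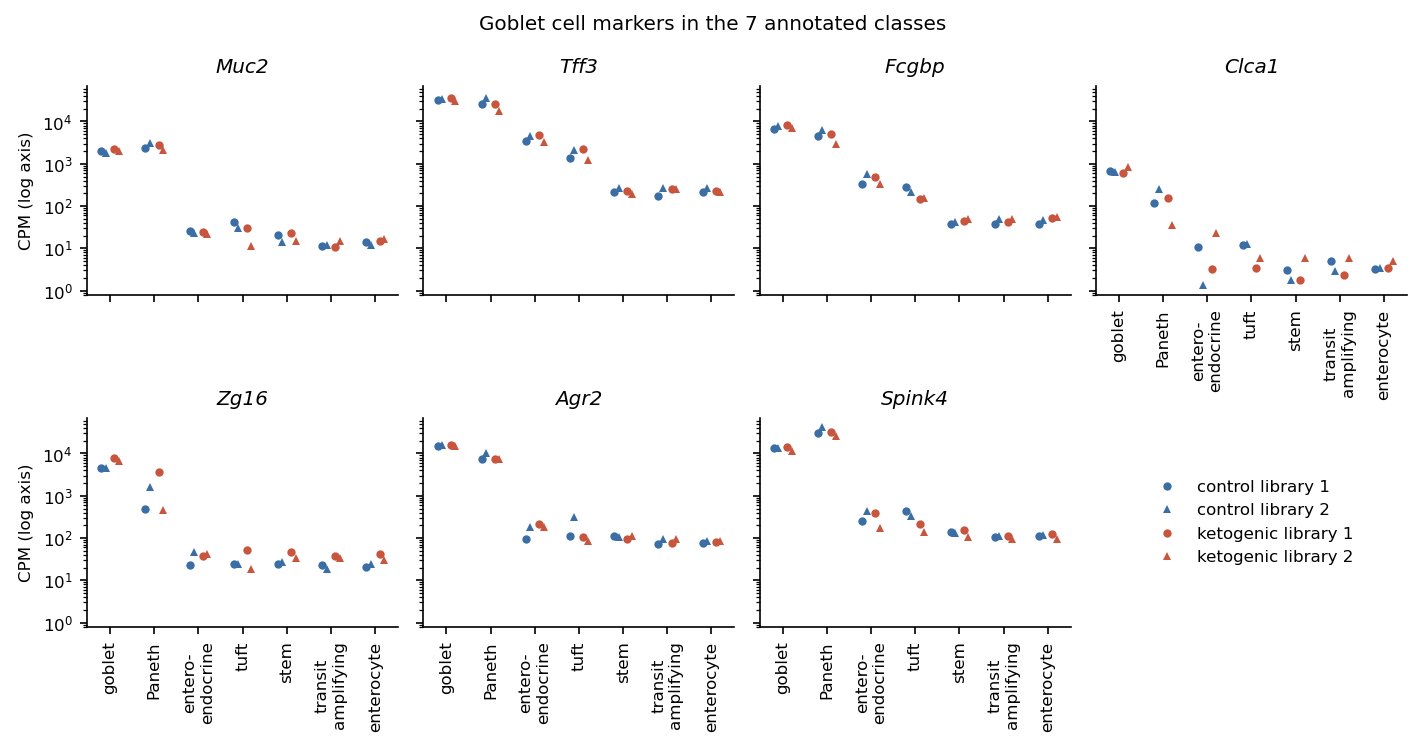
CPM (log axis) of the 7 goblet markers in each annotated class, 1 point per library. Goblet cells and the Paneth class stand high for every marker. Clca1 and Zg16 are the markers with the widest gap between them. Muc2 (mean 2574 CPM) and Spink4 (mean 32173 CPM) are higher in the Paneth class than in goblet cells.

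Of 1125 genes with at least 100 CPM in goblet cells of every library, 229 were higher in goblet cells than in every other class, and 6 were at least 2 times higher. These ratios are descriptions, because the classes were defined on the same transcripts. Clca1, a secreted metalloprotease that processes mucus, led with 4.95 times the level of the next class. Zg16 followed with 3.84 times, and the Notch ligand Dll1 with 2.42 times. The 15 leading genes also held 5 resident factors of the ER: Creld2 at 2.38 times the next class, Manf at 2.1, Sdf2l1 at 1.97, Pdia4 at 1.95 and Dnajb11 at 1.77. The next class was mostly the Paneth class, which numbered 188 cells and carried goblet mucus transcripts at 6.94% to 11.5% of its UMIs, against 8.25% to 9.47% in goblet cells. Comparisons with that class therefore set goblet cells beside cells that carry transcripts of both kinds. In the other direction, the Paneth marker list took 0.157% to 0.204% of goblet UMIs, against 4.68% to 22.5% in the Paneth class.

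Goblet cells made up 13.0% of control library 1 (95% exact binomial interval 11.9% to 14.1%) and 11.6% of control library 2 (10.7% to 12.5%). They made up 14.9% of ketogenic library 1 (13.7% to 16.2%) and 14.3% of ketogenic library 2 (13.1% to 15.5%). Both ketogenic shares lay above both control shares, but the log2 ratio of 0.25 ± 0.14 (SE, n = 2 libraries per diet) did not pass. The test was edgeR's quasi-likelihood test on cell numbers of the 7 classes, with total cells as offset (adjusted p = 0.252). An exact permutation test of 2 libraries against 2 cannot go below p = 0.33, the value it gave. Among cells other than enterocytes the goblet shares overlapped, at 33.0% and 26.6% under the control diet and 32.9% and 30.2% under the ketogenic diet. The intervals cover counting error alone.

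The diet comparison asked which transcripts of goblet cells differ between mice fed the ketogenic and the control diet. Under the ketogenic diet, goblet cells held more transcripts of fatty acid oxidation, more Reg4 and Zg16, less of the cholesterol pathway and the desaturase Scd2, fewer interferon-induced transcripts and less of the ER chaperone Hspa5, while Muc2, Tff3, Fcgbp, Clca1, Agr2, Spink4 and the goblet transcription factors did not pass the test. Of 9984 genes tested, 52 (0.521%) passed edgeR's quasi-likelihood test at a Benjamini-Hochberg adjusted p under 0.05. Of these, 31 rose (0.310%) and 21 fell (0.210%). The diets did not overlap for any of the 52, a pattern that 37.4% of all tested genes shared. With DESeq2, 24 of the same 52 genes (0.240% of those tested) passed, and no gene outside them. With 1 library left out, each of the 52 that could be tested kept its direction. Such a fit has a lone library in 1 diet and reuses the other libraries. Calls in such fits, here and below, are therefore not independent support. On simulated data the goblet diet fit with all libraries gave a larger share of false calls than the threshold allows. So did those for the differences from enterocytes and from stem cells below.

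**Figure D2:**
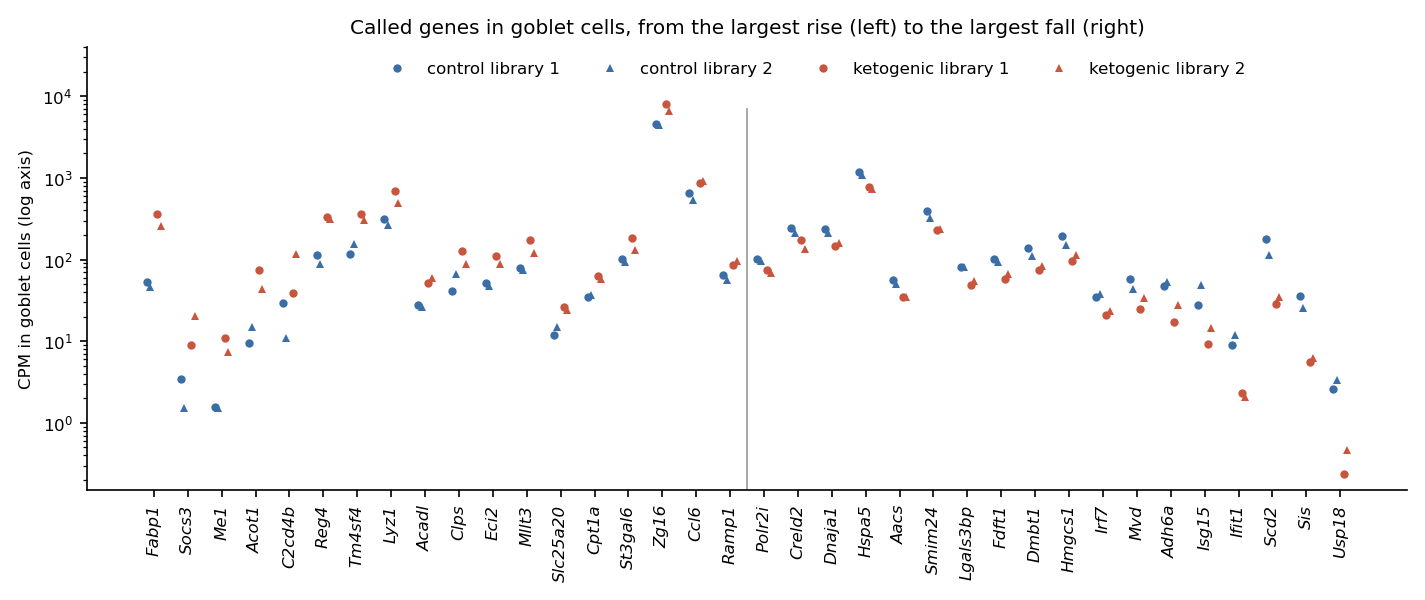
CPM in goblet cells (log axis) of the named genes that passed the test, 1 point per library, ordered from the largest rise at the left to the largest fall at the right; the vertical line separates rises from falls. In each gene the 2 control libraries lie on one side of the 2 ketogenic libraries, with Zg16 at the highest level and Usp18 at the lowest.

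Genes of fat handling led the rises. Fabp1, the cytosolic fatty acid binding protein abundant in enterocytes (mm10 chromosome 6, 71199827 to 71205023), was at 52.7 and 46.0 CPM under the control diet and 362 and 256 CPM under the ketogenic diet, in the order of libraries 1 and 2 here and below. Both ketogenic libraries were more than 4 times above both controls, a log2 fold change of 2.64 ± 0.15 (SE, edgeR adjusted p = 1.09e-07). Acot1, an acyl-CoA thioesterase and PPAR target, was at 9.44 and 14.8 CPM under control and at 73.7 and 43.4 CPM under ketogenic diet, and rose by 2.26 ± 0.26 on the log2 scale. Neither gene overlapped between the diets.

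Free transcripts from broken cells can enter any droplet, so the goblet level was set beside the enterocyte level. Fabp1 in goblet cells stood at 0.0678, 0.0535, 0.0552 and 0.0797 of its enterocyte level in the 4 libraries (control 1 and 2, ketogenic 1 and 2). The 9 enterocyte markers set beside it ranged widely, from 0.0274 for the alkaline phosphatase Alpi in ketogenic library 1 to 1.01 for Ada in control library 1, a gene at 6.76 to 8.53 CPM in enterocytes. The retinol binding protein Rbp2, the marker of highest enterocyte level, stood at 0.0749, 0.0607, 0.0589 and 0.0709, while Apob ranged from 0.158 to 0.219 and Mttp from 0.0991 to 0.159. The Fabp1 ratios lay inside the range of the 9 markers in each library, and the part of enterocyte RNA in the Fabp1 rise was not tested. Acot1 stood higher, at 0.379, 0.362, 0.248 and 0.235 of the enterocyte level.

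Of the 40 PPAR targets listed, 33 were tested, 10 rose and none fell, with 32 of 33 higher under the ketogenic diet and a median log2 fold change of 0.49, beside a median of 0.00 over all genes. Of 24 tested genes of mitochondrial fatty acid oxidation, 5 rose and none fell, with a median of 0.31. All 5 belong to the PPAR list too. Cpt1a, which admits long-chain fatty acids to mitochondria, was at 34.6 and 36.3 CPM under control and 62.9 and 58.2 CPM under ketogenic diet (log2 fold change 0.76 ± 0.13, edgeR adjusted p = 0.00782; DESeq2 adjusted p = 0.0837). The dehydrogenase Acadl went from 28.0 and 26.3 CPM to 51.9 and 58.7 CPM (log2 fold change 1.01 ± 0.13), and the enoyl-CoA isomerase Eci2 from 51.9 and 47.6 CPM to 110 and 88.4 CPM (0.99 ± 0.13). Both ketogenic libraries lay above both controls for each of the 3. Slc25a20, the carnitine shuttle carrier, rose by 0.91 ± 0.18 and the thiolase Acaa2 by 0.44 ± 0.09. Slc25a20 lost its call with DESeq2 (adjusted p = 0.528) and, in edgeR, without ketogenic library 1 (adjusted p = 0.0528), and so did Acaa2 (0.354 and 0.335). With DESeq2, 2 of the 5 oxidation genes were called, Acadl and Eci2, and 6 of the 10 PPAR targets.

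Other steps of the same pathway missed the threshold. The very-long-chain dehydrogenase Acadvl differed by 0.52 ± 0.12 (edgeR adjusted p = 0.0717) and the medium-chain dehydrogenase Acadm by 0.13. Outside oxidation, the PPAR list contributed Mgll, the monoglyceride lipase, at 9.17 and 7.16 CPM under control and 23 and 18.2 CPM under ketogenic diet (log2 fold change 1.33 ± 0.22; DESeq2 adjusted p = 0.0933). It also held Creb3l3, a membrane-bound transcription factor of lipid metabolism, which rose from 1.05 and 1.02 CPM to 9.86 and 7.39 CPM (3.01 ± 0.43). Enterocytes held Creb3l3 at 22.4 and 14.5 CPM under control and 134 and 52.7 CPM under ketogenic diet. Its goblet level was 0.0468, 0.0706, 0.0735 and 0.14 of the enterocyte level (control 1 and 2, ketogenic 1 and 2). The part of enterocyte RNA in the Creb3l3 rise was not tested. Aacs, the cytosolic enzyme that activates acetoacetate for lipid synthesis, fell by 0.61 on the log2 scale (edgeR adjusted p = 0.0406; adjusted p = 0.0526 without ketogenic library 2 and 0.571 with DESeq2).

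Genes of cholesterol synthesis were lower. All 25 listed genes were tested, all 25 were lower under the ketogenic diet, and 4 fell. The median of the list was -0.38 on the log2 scale. Hmgcs1, the cytosolic synthase at the head of the pathway, was at 193 and 149 CPM under control and 95.1 and 113 CPM under ketogenic diet (log2 fold change -0.72 ± 0.11, edgeR adjusted p = 0.00476). The squalene synthase gene Fdft1 was at 101 and 92.9 CPM under control and 57.3 and 65.8 CPM under ketogenic diet (-0.66 ± 0.10, edgeR adjusted p = 0.00576). For both genes the 2 ketogenic libraries lay below the 2 controls. The decarboxylase Mvd was at 57.7 and 43.2 CPM under control and 25.1 and 33.9 CPM under ketogenic diet, and fell by 0.78 on the log2 scale (edgeR adjusted p = 0.0406; DESeq2 adjusted p = 0.266).

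Scd2, a stearoyl-CoA desaturase that makes monounsaturated fatty acids, was at 180 and 115 CPM under control and 28.2 and 34.6 CPM under ketogenic diet. Both controls were more than 3 times above both ketogenic libraries (log2 fold change -2.23 ± 0.16, edgeR adjusted p = 1.93e-06). The malic enzyme Me1 went the other way, from 1.57 and 1.53 CPM to 10.8 and 7.39 CPM (2.52 ± 0.40). Its goblet level was 0.2 to 0.388 of the enterocyte level, and the part of enterocyte RNA in the Me1 rise was not tested. The other 11 tested genes of fatty acid synthesis did not pass, among them Fasn at -0.46 ± 0.13. Among 9 tested genes of carbohydrate digestion, the brush border disaccharidase Sis fell by 2.35 on the log2 scale, from 35.4 and 25.3 CPM to 5.64 and 6.24 CPM. Sis in goblet cells stood at 0.0597, 0.0585, 0.0832 and 0.128 of the enterocyte level, inside the range of the 9 enterocyte markers in each library. Apob, Mttp and Ada stood above Sis in all 4 libraries, and Rbp2 below it in the ketogenic libraries alone. The part of enterocyte RNA in the Sis value was not tested.

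Interferon-induced genes were lower. Of 27 listed, 21 were tested, 5 fell and none rose, and the median log2 fold change was -0.65. Isg15, a ubiquitin-like modifier, was at 27.5 and 48.3 CPM under control and 9.16 and 14.5 CPM under ketogenic diet (log2 fold change -1.69 ± 0.26, edgeR adjusted p = 0.00502; DESeq2 adjusted p = 0.354). Ifit1, which binds foreign RNA, went from 8.91 and 11.8 CPM to 2.35 and 2.08 CPM (-2.22 ± 0.35, edgeR adjusted p = 0.0054). The diets did not overlap for either gene, though control library 2 was the higher control for both. Irf7, the interferon-inducible transcription factor, fell by 0.72, and Rtp4 by 0.95. Usp18 fell by 2.99 at under 4 CPM in every library, and lost its call without control library 1 (edgeR adjusted p = 0.0951), ketogenic library 1 (0.327) or ketogenic library 2 (0.161). Rtp4 lost its call without ketogenic library 1 (edgeR adjusted p = 0.111). DESeq2 called 1 of the 5, Ifit1 (adjusted p = 0.0363).

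None of 3 tested MHC class II genes passed in edgeR or DESeq2. All 3 were lower under the ketogenic diet at an unadjusted edgeR p under 0.05, as were 453 of all 9984 genes tested. The values of the 3 rested on control library 1. Cd74, the invariant chain, was at 252 CPM in control library 1 and at 6.91, 10.6 and 11.1 CPM in control library 2 and ketogenic libraries 1 and 2. The groups overlapped, and the log2 fold change of -3.56 ± 0.89 became 0.60 without control library 1. The list's median went from -2.27 to 0.51 in the same step. In control library 1, 229 of 460 goblet cells held a Cd74 UMI, against 21 of 566 in control library 2. Enterocytes of control library 1 were high as well, at 680 CPM against 24.8 CPM in control library 2, and whether their RNA entered the goblet value was not tested.

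Muc2 and 5 other goblet markers did not pass the test. Muc2 was at 2012 and 1809 CPM under control and 2204 and 2030 CPM under ketogenic diet, a log2 fold change of 0.14 ± 0.09 (edgeR adjusted p = 0.714). Both ketogenic libraries lay above both controls for Muc2, by a margin that did not pass. Tff3 differed by -0.05 ± 0.15, Fcgbp by 0.08 ± 0.13, Clca1 by 0.09 ± 0.11, Agr2 by -0.03 ± 0.13 and Spink4 by -0.07 ± 0.14. For these 5 the diets overlapped. The 22 listed mucus and granule genes together took 8.40% and 8.82% of goblet UMIs under control and 9.47% and 8.25% under ketogenic diet (exact permutation p = 1, two-sided). Those shares overlapped, with ketogenic library 1 highest and ketogenic library 2 lowest, and the difference of 0.25 percentage points became -0.36 without ketogenic library 1.

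Within that list, 3 of 22 genes rose and none fell, with a median log2 fold change of 0.09. Zg16, a lectin that binds Gram-positive bacteria in mucus (mm10 chromosome 7, 127050156 to 127087328), was at 4537 and 4420 CPM under control and 7956 and 6521 CPM under ketogenic diet. Both ketogenic libraries were above both controls (log2 fold change 0.69 ± 0.12, edgeR adjusted p = 0.012; adjusted p = 0.0563 without ketogenic library 1). At 2000 UMIs per cell, Zg16 was seen in 35.9% and 34.6% of control goblet cells and 43.3% and 41.1% of ketogenic ones, and in 4.22% to 9.32% of enterocytes, which should lack it. Without thinning the goblet shares were 50.7%, 47.9%, 57.8% and 55.0%. The chemokine Ccl6 rose from 653 and 529 CPM to 875 and 907 CPM (0.59 ± 0.09, edgeR adjusted p = 0.00502), and Ramp1, a receptor activity modifier for the neuropeptide CGRP, from 64.0 and 56.8 CPM to 85.5 and 96.3 CPM (0.58 ± 0.11). Ramp1 lost its call with DESeq2 (adjusted p = 0.203) and, in edgeR, without ketogenic library 2 (adjusted p = 0.06).

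Reg4, a secreted lectin of the Reg family, rose. It was at 115 and 88.8 CPM under control and 336 and 310 CPM under ketogenic diet, so the lowest ketogenic library was well above the highest control (log2 fold change 1.66 ± 0.11, edgeR adjusted p = 2.91e-07). At 2000 UMIs per cell, a Reg4 UMI was found in 13.9% of goblet cells of control library 1 (95% Wilson interval 11.0% to 17.4%) and 12.6% of control library 2 (10.1% to 15.6%). The shares were 26.1% (22.3% to 30.2%) and 22.0% (18.5% to 25.9%) in ketogenic libraries 1 and 2. These intervals cover counting error within a library and leave out the spread between libraries. Enterocytes gave 0.265% to 0.572%, and without thinning the goblet shares were 28.5%, 22.6%, 42.4% and 36.1%. The Paneth class held more Reg4 than goblet cells, at 778 and 1068 CPM under control and 1812 and 2022 CPM under ketogenic diet. Thinning left out 17 goblet cells, all from control library 2. Cells with 10 or more Reg4 UMIs, a limit chosen after the values were seen, numbered 8 and 4 under control and 42 and 33 under ketogenic diet. Their median mucus share was 9.03% to 12% of UMIs, against 7.01% to 7.83% in the remaining goblet cells. Their median share of Paneth marker UMIs was also higher, at 0.208%, 0.534%, 0.21% and 0.581% in control libraries 1 and 2 and ketogenic libraries 1 and 2, against 0.0502% to 0.0875% in the remaining cells, and its part in the Reg4 rise was not tested.

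Lyz1, the lysozyme of Paneth granules, was at 311 and 268 CPM under control and 681 and 497 CPM under ketogenic diet (log2 fold change 1.02 ± 0.13, edgeR adjusted p = 0.000811). Of 11 tested Paneth markers, Lyz1 alone rose and none fell, with a median of 0.40. Outside that list, and chosen after their values were seen, the Paneth defensin gene Defa20 rose from 11.3 and 12 CPM to 25.1 and 21.9 CPM (log2 fold change 1.00 ± 0.18, edgeR adjusted p = 0.0207) and the gene model Gm15284 by 0.94 ± 0.20 (edgeR adjusted p = 0.0487; 0.229 without ketogenic library 1). DESeq2 called neither (adjusted p = 0.379 and 0.101), and reads of defensin genes may be divided among near-identical copies. Lyz1 also stood higher in ketogenic enterocytes, at 48.9 and 23.1 CPM against 11.7 and 12.7 CPM, and in the Paneth class, at 20904 and 11130 CPM against 6352 and 3241 CPM. The part of Paneth cell RNA in the goblet value was not tested. Clps, the pancreatic colipase, rose by 0.99 ± 0.20, with DESeq2 giving an adjusted p of 1. Dmbt1, a scavenger receptor of mucus, went from 138 and 111 CPM to 74.0 and 82.9 CPM (-0.68 ± 0.11, edgeR adjusted p = 0.00571), but the difference was -0.35 (edgeR adjusted p = 0.419) without the cells of highest doublet score. The ribonuclease Ang4 was at 66.3 and 184 CPM under control and 48.4 and 83.6 CPM under ketogenic diet, where the groups overlapped. Its log2 fold change of -0.95 ± 0.32 did not pass with all libraries. It ranged from -1.52 without control library 1 to 0.016 without control library 2, and edgeR called it lower without control library 1 or either ketogenic library (adjusted p = 1.13e-36, 0.00307 and 4.35e-15). Retnlb, a goblet effector of worm infection, held 16, 7, 5 and 3 UMIs in all and was too low to test.

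Of 32 tested enzymes that glycosylate and sulfate mucin, St3gal6, a sialyltransferase, rose and none fell, with a median log2 fold change of 0.10. St3gal6 was at 101 and 93.1 CPM under control and 185 and 129 CPM under ketogenic diet (0.69 ± 0.14, edgeR adjusted p = 0.0453). The value was 0.38 (edgeR adjusted p = 0.308) without ketogenic library 1, and DESeq2 gave an adjusted p of 1. Galnt12, an initiating O-glycosyltransferase, differed by 0.22 ± 0.08 and did not pass (edgeR adjusted p = 0.374).

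Of 22 tested genes of disulfide formation and ER folding, 2 fell and none rose, with 19 of 22 lower and a median of -0.14. Hspa5, the ER chaperone BiP (mm10 chromosome 2, 34771970 to 34777547), was at 1183 and 1091 CPM under control and 765 and 735 CPM under ketogenic diet. Both ketogenic libraries were below both controls (log2 fold change -0.61 ± 0.08, edgeR adjusted p = 0.00224). Creld2, an ER-resident disulfide isomerase, was at 242 and 211 CPM under control and 174 and 135 CPM under ketogenic diet (-0.55 ± 0.11, edgeR adjusted p = 0.0476). Creld2 lost its call without ketogenic library 2 (edgeR adjusted p = 0.224), among cells under 10% mitochondrial UMIs (0.0632) and with DESeq2 (adjusted p = 0.0897). The chaperone Hsp90b1 differed by -0.16 ± 0.09 (edgeR adjusted p = 0.615), and Pdia3 by 0.20 ± 0.08. None of 14 tested genes of unfolded protein response signalling passed in edgeR or DESeq2. At an unadjusted edgeR p under 0.05, 4 were lower under the ketogenic diet (Sel1l, Syvn1, Edem1 and Selk), as were 453 of all 9984 genes tested. The transcription factor Xbp1 differed by -0.03 ± 0.08 (edgeR adjusted p = 0.959) and its goblet-specific activator Ern2 by -0.10 ± 0.09 (0.804). The cytosolic co-chaperone Dnaja1 fell by 0.56 on the log2 scale.

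None of the 18 tested transcription factors of the lineage passed in edgeR or DESeq2, and their median was 0.08. At an unadjusted edgeR p under 0.05, 1 was higher and 1 lower, beside 442 higher and 453 lower of all 9984 genes tested. Atoh1 was at 366 and 328 CPM under control and 373 and 372 CPM under ketogenic diet. Klf4, which supports terminal goblet differentiation, differed by 0.21 ± 0.08, and Foxa3 and Creb3l1 by -0.02 ± 0.09 and -0.01 ± 0.08. Spdef, which drives goblet maturation, was at 225 and 204 CPM under control and 178 and 179 CPM under ketogenic diet, a difference of -0.27 ± 0.08 (edgeR adjusted p = 0.244). Its 2 ketogenic libraries lay below the 2 controls without passing the test.

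**Figure D3:**
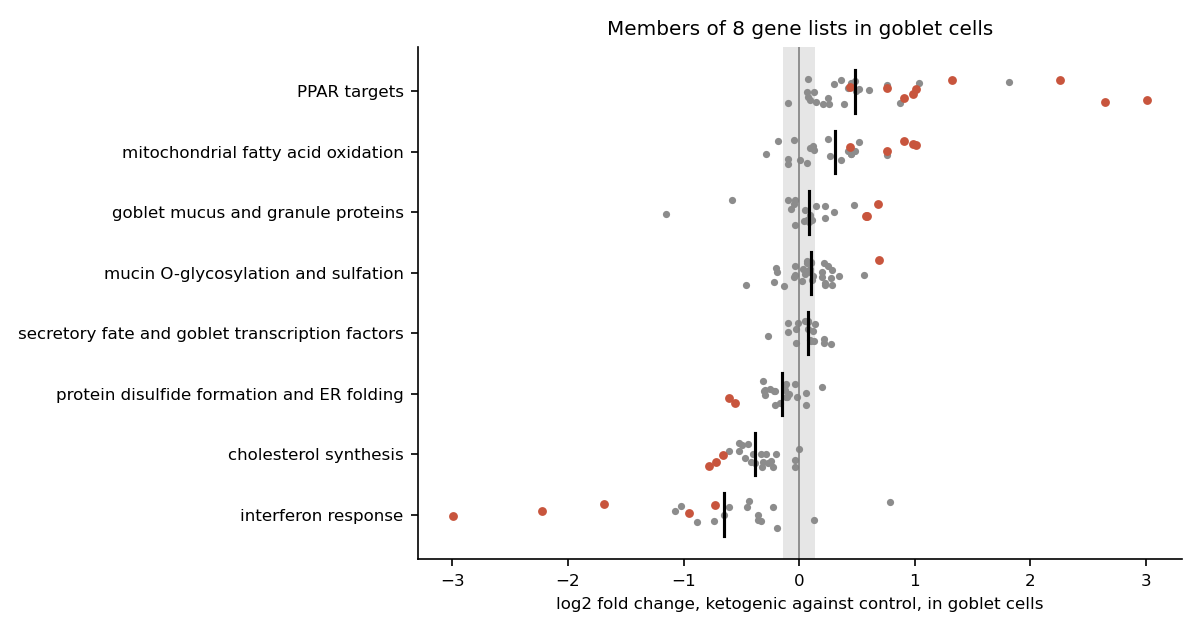
log2 fold change (ketogenic against control) in goblet cells of the reported members of 8 gene lists; red points passed the test, black bars are medians of all tested members, and the grey band spans the middle 50% of all 9984 genes around their median line. PPAR targets lie to the right (median 0.49), cholesterol synthesis (-0.38) and interferon response (-0.65) to the left, and the mucus, glycosylation and transcription factor lists near 0.

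The remaining named genes fell outside these groups. Socs3, a feedback inhibitor of cytokine signalling, was at 3.41 and 1.53 CPM under control and 8.92 and 20.3 CPM under ketogenic diet (log2 fold change 2.55 ± 0.43, edgeR adjusted p = 0.0101). C2cd4b was at 29.6 and 11.0 CPM under control and 38.5 and 118 CPM under ketogenic diet, so that ketogenic library 2 stood far above the other 3 (1.94 ± 0.40, edgeR adjusted p = 0.0476, not called by DESeq2). Mllt3, a chromatin reader, rose by 0.93, and Adh6a, an alcohol dehydrogenase, fell by 1.17 on the log2 scale, from 48.0 and 52.9 CPM to 17.1 and 27.9 CPM. The small membrane protein gene Smim24 fell by 0.63, the secreted glycoprotein gene Lgals3bp by 0.65 and the RNA polymerase II subunit gene Polr2i by 0.50 on the log2 scale. Goblet levels were 0.113 to 0.3 of the enterocyte level for Adh6a and 0.256 to 0.443 for Smim24. The part of enterocyte RNA in the falls of Adh6a and Smim24 was not tested. DESeq2 did not call Mllt3, Lgals3bp or Polr2i, and edgeR did not call Polr2i without ketogenic library 2.

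Promoters of the called genes were read to show where known response elements lie, in the 250 bases before the start in the RefSeq promoter table (GRCm38.p6), which held 36 of the 50 called genes looked up in it. Both strands were searched for 8 patterns, chosen after the called genes were seen. The ER stress response element, CCAAT followed after 9 bases by CCACG, occurred in Hspa5 and Creld2, and in 0.13% of all genes of the table. The core of the interferon-stimulated element, GAAA repeated after 2 bases, occurred in Isg15, Ifit1 and Adh6a, and in 3.46% of all genes. The longer form with CT after the second GAAA, which contains that core, was found in Ifit1 (0.255% of all genes). The sterol element core CACCCCAC occurred in Hmgcs1 and Ramp1 (2.98% of all genes), its variant TCACNCCAC, which can overlap it, in Hmgcs1 (1.22%), and the core preceded by AT in none of the 36 (0.0814%). The PPAR pattern, AGGTCA repeated after 1 base, occurred in none of the 36 (0.0407% of all genes). Its relaxed form with AGGNCA in both places, which covers it, occurred in Fabp1 and Ccl6 (0.4%). Single stretches of the falling genes are shown 5′ to 3′ in the direction of transcription, with the matches, some on the opposite strand, in capitals.
Hspa5 (chr2:34772010-34772058, plus strand): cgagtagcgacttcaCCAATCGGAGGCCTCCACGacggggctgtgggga
Creld2 (chr15:88819505-88819553, plus strand): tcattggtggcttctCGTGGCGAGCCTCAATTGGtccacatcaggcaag
Isg15 (chr4:156200860-156200911, minus strand): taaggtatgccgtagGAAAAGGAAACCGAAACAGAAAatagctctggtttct
Ifit1 (chr19:34640770-34640828, plus strand): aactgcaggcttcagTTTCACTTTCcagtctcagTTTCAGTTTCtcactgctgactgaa
Hmgcs1 (chr13:119690200-119690237, plus strand): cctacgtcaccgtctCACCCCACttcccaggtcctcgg
The RefSeq start used for Hspa5 lies downstream of the GENCODE gene start given above, so that its stretch falls inside the GENCODE gene. The Isg15 stretch holds 3 overlapping matches and the Ifit1 stretch 2 separate ones. These are letter matches in the reference, and binding was not measured.

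Whether the diet effect in goblet cells differed from that in other classes was tested in 1 model per pair of classes, with the library as a block. Against enterocytes, 71 of 11637 genes differed (0.610%), 54 of them more positive in goblet cells (0.464%) and 17 more negative (0.146%). The count was 11 with DESeq2 and 6 without control library 1. Of all genes tested in enterocytes alone, 0.180% passed. Tm4sf4, a tetraspanin-like membrane protein, rose in goblet cells from 116 and 156 CPM to 366 and 306 CPM, and the goblet effect was smaller than in enterocytes by 0.97 ± 0.16 (edgeR adjusted p = 0.00461; 0.329 without control library 1). Enterocytes held Tm4sf4 at 3.30 to 27.6 CPM.

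The antibacterial lectin Reg3b did not pass in goblet cells, at 434 and 576 CPM under control and 280 and 728 CPM under ketogenic diet, groups that overlapped. In enterocytes it was at 2352 and 1886 CPM under control and 418 and 893 CPM under ketogenic diet. The goblet effect was more positive by 1.65 ± 0.16 (edgeR adjusted p = 2.16e-05), and this difference was called in each of the 4 fits that left out a library, while DESeq2 gave an adjusted p of 0.0500015, just over the threshold. Papss2, which makes the sulfate donor used for mucin sulfation, was at 12.3 and 11.0 CPM under control and 11.5 and 9.01 CPM under ketogenic diet in goblet cells. Its enterocyte level went from 58.5 and 72.8 CPM to 22.9 and 18 CPM, and the difference of 1.5 ± 0.24 passed edgeR (adjusted p = 0.00378; 0.0628 without control library 1). No difference passed for Fabp1 (0.14 ± 0.15, edgeR adjusted p = 0.843), Scd2 (0.25 ± 0.17) or Hspa5 (0.12 ± 0.12).

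**Figure D4:**
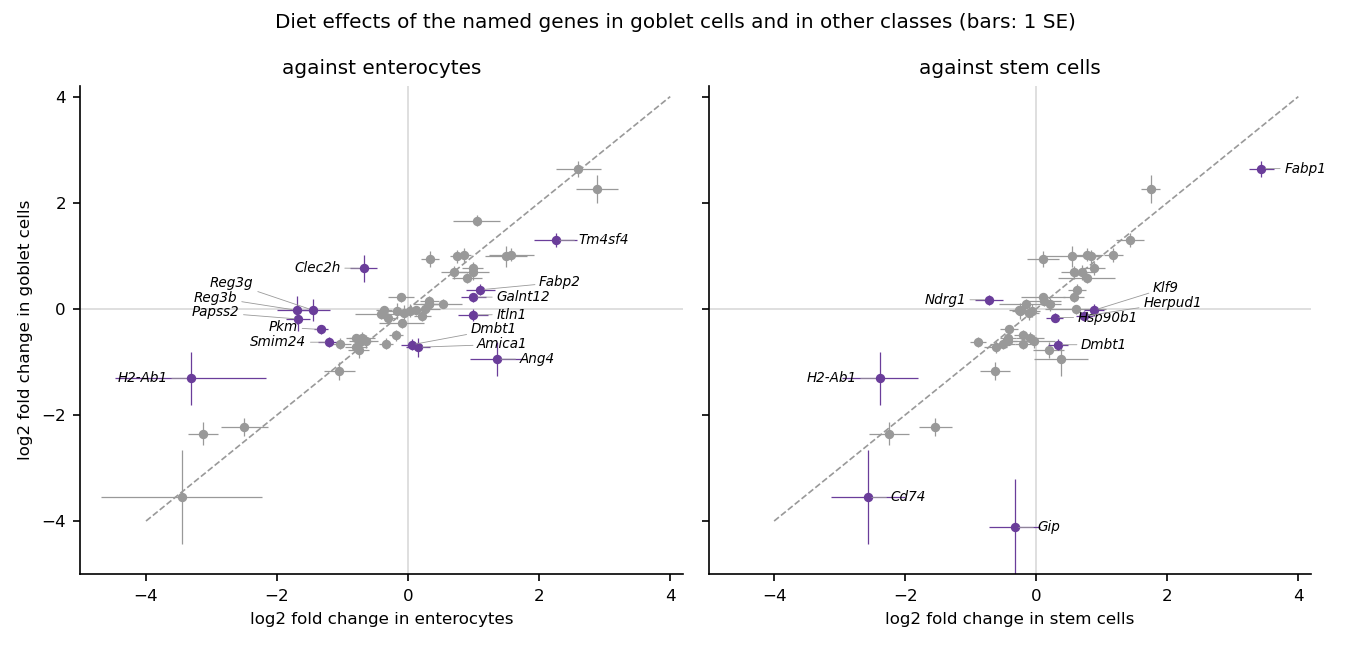
log2 fold change (ketogenic against control, bars 1 SE) of the named genes in goblet cells (vertical axis) against enterocytes (left) or stem cells (right); purple points are genes whose effect differed between the classes, and the dashed line marks equal effects. Tm4sf4 lies below the line on the left, Reg3b, Reg3g and Papss2 above it, and Fabp1 and Herpud1 below it on the right; Gip and Cd74 rest on control library 1.

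Against stem cells, 19 of 10517 genes differed (0.181%), 5 more positive (0.0475%) and 14 more negative (0.133%) in goblet cells. DESeq2 called 0, with 36 genes at an unadjusted p under 0.05 against 611 in edgeR, while edgeR called 7 without control library 1 and 7 without ketogenic library 1. Herpud1, a component of ER-associated degradation, was at 245 and 260 CPM under control and 222 and 240 CPM under ketogenic diet in goblet cells. In stem cells, where 0.336% of all tested genes passed, it rose from 64.5 and 70.9 CPM to 113 in both ketogenic libraries. The goblet effect differed by -0.87 ± 0.13 (edgeR adjusted p = 1.31e-07), called in each of the 4 fits leaving out a library. Fabp1 rose less in goblet cells than in stem cells, by 0.78 ± 0.14 on the log2 scale (edgeR adjusted p = 0.472 without control library 1), and the Tm4sf4 difference of -0.24 ± 0.22 did not pass (edgeR adjusted p = 0.985). Dmbt1 was more negative in goblet cells by 0.97 ± 0.12 (edgeR adjusted p = 8.43e-12; 0.0837 without ketogenic library 1).

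Against the Paneth class, 23 of 9313 genes differed (0.247%), 2 more positive (0.0215%) and 21 more negative (0.225%) in goblet cells, and 9 of the 21 were Paneth markers. DESeq2 called 5. The Lyz1 effect was smaller in goblet cells by 1.17 ± 0.15 on the log2 scale, a difference called in each of the 4 fits that left out a library, though not by DESeq2 (adjusted p = 0.247). Ang4 differed by -2.81 ± 0.14, with 1040 and 976 CPM under control and 2549 and 3305 CPM under ketogenic diet in the Paneth class (DESeq2 adjusted p = 1). Goblet cells held it at 66.3 and 184 CPM under control and 48.4 and 83.6 CPM under ketogenic diet. The Ang4 difference ran from -3.57 without control library 1 to -1.90 without control library 2. Its SE is below that of the goblet effect alone (0.32) and understates this spread. Reg4 rose in both classes (0.440% of all genes tested in the Paneth class alone passed), and the difference of 0.18 ± 0.13 did not pass (edgeR adjusted p = 0.985).

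The goblet cells were last divided within each library at the median share of UMIs in 27 cell cycle genes. This split was chosen after the diet results were seen, and 17 to 29 cells on either side of the cut lay within 10% of it in each library. The cells of lower share were the richer in mucus, at a median of 10.5% to 11.8% of UMIs against 4.60% to 5.87%. Their Muc2 level was 2.88 to 3.88 times, and their Zg16 level 5.98 to 12.9 times, that of the cells of upper share. Under the ketogenic diet 66 of 8397 genes (0.786%) passed in the cells of lower share and 25 of 9070 (0.276%) in those of upper share. The effect itself differed between these cells for 13 of 9263 genes (0.140%) in edgeR, 12 (0.130%) more negative and 1 (0.0108%) more positive at lower share. DESeq2 called 0 differences, with 27 genes at an unadjusted p under 0.05 against 550 in edgeR.

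Hspa5 was at 1414 and 1270 CPM under control and 760 and 763 CPM under ketogenic diet in the cells of lower share. In those of upper share it was at 982 and 928 CPM under control and 770 and 711 CPM under ketogenic diet. The diets did not overlap in either set, and the effect was more negative at lower share by 0.45 ± 0.07 on the log2 scale (edgeR adjusted p = 0.000938; 0.0638 without control library 1). The Agr2 effect differed between the sets by -0.36 ± 0.04 (edgeR adjusted p = 1.59e-06), called in each of the 4 fits leaving out a library, although the diet effect passed in neither set. Reg4 rose in both, by 1.92 ± 0.11 at lower and 1.24 ± 0.16 at upper share, and the difference missed the threshold (edgeR adjusted p = 0.0505). Fabp1 rose by 2.63 ± 0.13 and 2.65 ± 0.19, and Scd2 fell in both sets, by 2.39 and 2.02 on the log2 scale.

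**Figure D5:**
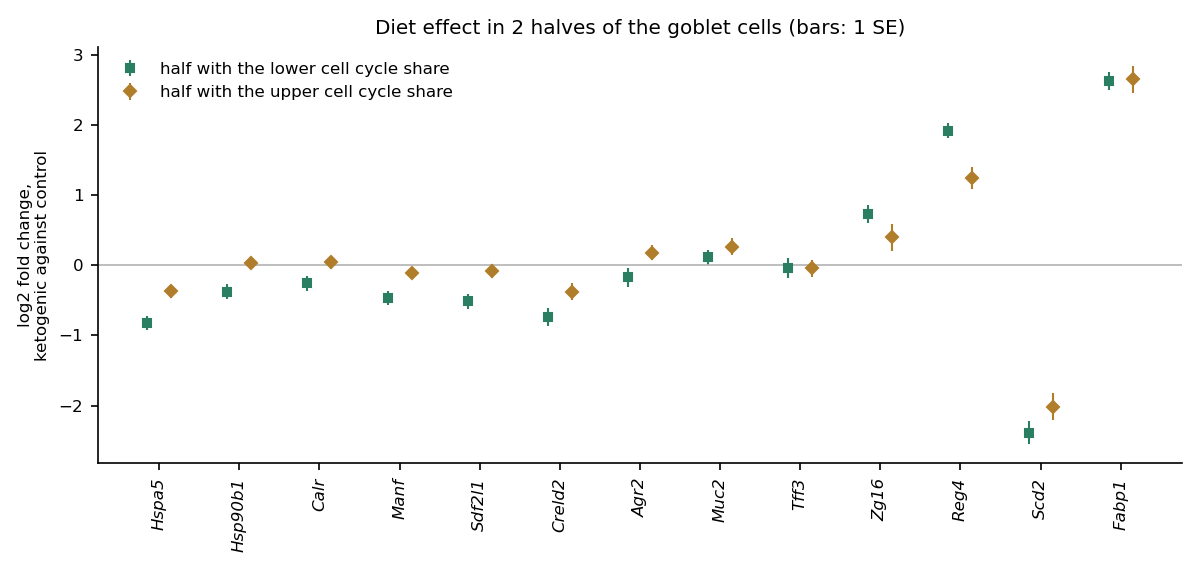
log2 fold change (ketogenic against control, bars 1 SE) of 13 genes in the goblet cells of lower and of upper cell cycle share. Hspa5, Hsp90b1, Calr, Manf, Sdf2l1 and Creld2 lie lower at lower share, while Tff3 and Fabp1 lie at equal heights. The Creld2 difference did not pass (edgeR adjusted p = 0.683). Of the ER folding list, Hyou1 (0.08 ± 0.22) and Ero1lb (0.17 ± 0.47), not shown, differed in the other direction without passing.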

How the data were processed

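The deposited count matrix (UMI counts per gene and cell, 4 libraries) and its cell annotation were used as the authors deposited them; Cell Ranger 2.1.0 and genome build mm10 are named in the submitters' processing notes. How cells were filtered and annotated was not given in the sources used here. No cell was removed. Counts were summed over the cells of each class and library and tested with edgeR 4.0.16 (R 4.3.3; TMM scaling, filterByExpr, quasi-likelihood F test, all 4 libraries, no covariate), with Benjamini-Hochberg adjustment over all genes tested and a threshold of 0.05. Standard errors are the log2 fold change divided by the square root of F. DESeq2 1.42.0 was an alternative. Class shares were tested with edgeR's quasi-likelihood F test on cell numbers, with total cells as offset and no TMM scaling. Differences between classes came from 1 edgeR fit per pair of classes, over 8 sums with a library term. CPM are counts scaled to 1000000 UMIs of the class. Fits were tested on simulated data, where the share of false calls exceeded the threshold in 3 of the 5 fits (the diet effect in goblet cells and the differences from enterocytes and from stem cells).

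Genes were named by rule: up to 15 largest called rises and falls at a mean log2 CPM of at least 5 without overlap (15 rises and 13 falls qualified), up to 4 called members of each of 30 lists, 23 fixed genes, up to 5 called differences per direction between classes, and 15 leading genes. Results for some genes are not reported here, though they stay in counts and medians. Ribosomal, mitochondrially encoded and unnamed gene models entered through lists alone. Members named for contrast without a call were chosen after their values were seen. The members and lists were chosen with earlier results of these data known. Scrublet (scanpy 1.11.5) called 0.0204% to 0.188% of cells, too few to have worked, so an alternative left out the 6% of cells that scored highest; goblet cells were over-represented there (9.36% to 14.1% of them). For detection, cells were thinned to 2000 UMIs with a fixed seed. Gene positions come from GENCODE M21 and promoters from RefSeq. Alternatives covered scaling, tool, count filter, mitochondrial share, depth, doublets, Paneth transcripts, pairing and each library.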

Additional observations from a re-analysis of the deposited data

Results flagged for a closer look

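The diet effect in goblet cells differed from that in another class, by the interaction test in edgeR, for the following named genes, given as the goblet effect minus the other effect on the log2 scale. Against enterocytes it was more positive for H2-Ab1 (1.85), Reg3b (1.65), Papss2 (1.5), the natural killer receptor ligand Clec2h (1.49) and Reg3g (1.46). It was more negative for Ang4 (-2.25), the lectin Itln1 (-1.06), Tm4sf4 (-0.97), the junctional adhesion molecule Amica1 (-0.87) and Galnt12 (-0.77). Enterocyte levels were low for Ang4, at 1.71 to 7.56 CPM, and for Itln1, at 7.6 to 20.3 CPM. Without control library 1, H2-Ab1 came to 0.37 and lost its call, and the calls of Papss2, Ang4, Itln1, Tm4sf4, Amica1 and Galnt12 were lost as well. Ang4 also lost its call without control library 2, and Amica1 without control library 2 or ketogenic library 1. Of these 10, DESeq2 called Papss2, Clec2h and Tm4sf4, and gave adjusted p = 0.0500015 for Reg3b, 0.0868 for Galnt12, 0.128 for Amica1 and 1 for H2-Ab1, Reg3g, Ang4 and Itln1.

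Against the Paneth class the effect was more positive in goblet cells for the histone gene Hist1h2bc (0.89) and the glutathione peroxidase Gpx2 (0.66). It was more negative for Gip (-4.09), Mptx2 (-3.35), Ang4 (-2.81), the defensin Defa26 (-2.80) and the defensin-like AY761184 (-2.64). Defensin genes have near-identical copies, so reads may be divided among them. Mptx2 stood at under 3 CPM in goblet cells of every library and was called only without ketogenic library 1 among the 4 fits that left out a library. Gip came to -1.13 without control library 1 and lost its call, as it did without ketogenic library 1. Hist1h2bc lost its call without control library 1 (edgeR adjusted p = 0.719) or ketogenic library 2 (1), Gpx2 without control library 2 (0.908) or ketogenic library 2 (0.407), and Defa26 without control library 2 (0.969) or ketogenic library 2 (0.197). Of these 7, DESeq2 called Mptx2 and AY761184, with an adjusted p of 1 for the other 5.

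Against stem cells the effect was more positive for H2-Ab1 (1.16) and Ndrg1 (0.87), and more negative for Gip (-3.40), Dmbt1 (-0.97), Klf9 (-0.90), Herpud1 (-0.87) and Cd74 (-0.85). Without control library 1, H2-Ab1 came to 0.21, Cd74 to 0.23 and Gip to 0.17, none of them called. H2-Ab1 and Cd74 also lost their calls without ketogenic library 2, and Cd74 and Dmbt1 without ketogenic library 1. Ndrg1 was called in none of the 4 fits that left out a library (edgeR adjusted p = 0.0727 to 0.566), and Klf9 lost its call without control library 1 (0.29) or ketogenic library 1 (0.0995). DESeq2 called none of these 7, with 36 of all genes at an unadjusted p under 0.05. Of the 1124 Gip UMIs in goblet cells of control library 1, 1047 came from 1 cell.

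Between goblet cells of lower and upper cell cycle share, the effect at lower share was more negative for Agr2 (-0.36), Defa24 (-0.62), Hspa5 (-0.45), Ang4 (-1.17), Hsp90b1 (-0.42), Fdps (-0.67), Ccl9 (-0.40), Guca2b (-0.34), Manf (-0.37), Tubb4b (-0.56), Sdf2l1 (-0.44) and Calr (-0.31). It was more positive for Gip (4.12), which rests on the cell named above. Of the 4 fits that left out a library, Agr2 was called in 4, Hspa5 and Defa24 in 3, Ang4 and Gip in 2, Hsp90b1, Fdps, Ccl9, Guca2b and Manf in 1, and Tubb4b, Sdf2l1 and Calr in none. DESeq2 called none of these 13 differences (27 genes were at an unadjusted p under 0.05).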

How the results depend on the processing

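All 52 genes called in goblet cells kept their direction under each alternative in which they were tested (51 of 52 without control library 2). The count of 52 became 24 with DESeq2 and 99 to 189 with 1 library left out. The deviations of libraries that share a replicate number had a correlation of -0.03 over 9984 genes. With 2 libraries per diet this single value cannot decide whether the libraries were paired. With the replicate block 104 genes were called. The number of differences from enterocytes, 71, became 11 with DESeq2, 158 with no filter on low counts and 6 to 115 with 1 library left out. Differences from the Paneth class, 23, became 5 with DESeq2, 15 without the cells of highest doublet score and 19 to 22 with 1 library left out. Differences from stem cells, 19, became 0 with DESeq2, 12 with no filter, 7 among cells under 10% mitochondrial UMIs, 12 without the cells of highest doublet score and 7 to 26 with 1 library left out. Differences between cells of lower and upper cell cycle share, 13, became 0 with DESeq2 and 6 to 16 with 1 library left out, alternatives chosen after seeing the data. The cause of these moves was not tested.

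Among genes that were not called, the sign turned when 1 library was left out. The values ran from -0.20 to 0.088 for Tff3, -0.085 to 0.23 for Fcgbp, -0.14 to 0.29 for Clca1, -0.12 to 0.061 for Agr2 and -0.31 to 0.13 for Spink4. They ran from -0.12 to 0.069 for Foxa3, -0.065 to 0.051 for Creb3l1, -1.52 to 0.016 for Ang4 and -4.51 to 0.60 for Cd74. The sign also turned for Creb3l1 (0.0017) with thinned sums and for Xbp1 (0.0033) among cells under 10% mitochondrial UMIs. No goblet cell had 5% of its UMIs in Paneth markers, so that alternative removed none. With 2 libraries per diet an exact test cannot go below p = 0.33, and a fit without 1 library assumes that the lone library varies like the others.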
